A study of Mus musculus with 10 samples.

Results

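The cytochrome P450 family was examined in the jejunum of newborn mice, to ask how its members differed between mice that make interleukin-23 (IL-23) in the skin and control mice. Members were all genes whose symbol begins with Cyp and a digit, except Cyp51, an enzyme of cholesterol synthesis. This gave 103 of the 24062 genes in the count tables. The WT group was wild type. The KSR23 group carried an IL-23 cassette in the ROSA26 locus behind a floxed stop, which cre, expressed from the keratin 14 promoter, removes in keratinocytes. Both groups were C57BL/6 mice at postnatal day 5, and each gave 5 libraries of whole jejunum. The promoter is that of a skin keratin, whereas the RNA came from the intestine. The study describes the libraries of a group as biological replicates, but the labels name no animals, so p-values measure the spread between these libraries.

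Cytochrome P450 enzymes are heme proteins of the endoplasmic reticulum and the mitochondria that insert an oxygen atom into lipids, steroids and foreign compounds, using electrons from P450 reductase or ferredoxin. Families 1 to 3 oxidize drugs, plant compounds and arachidonic acid, family 4 hydroxylates the end of fatty acid chains and inactivates leukotrienes, and smaller families make bile acids, steroid hormones, active vitamin D and inactive retinoic acid. In the small intestine the enzymes sit mostly in enterocytes, and their genes often lie in clusters of close relatives on 1 chromosome.

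The libraries held 25.5 to 32.0 M counts in WT and 31.2 to 60.9 M in KSR23 (M, 1e6). Levels are given as CPM, counts for each M counts of the TMM-scaled total. In unscaled libraries 3 counts equalled 0.0492 to 0.118 CPM, and intervals and floors cover counting error only. At most genes, replicates 4 and 5 of both groups had values intermediate between those of replicates 1 to 3. They were the highest or lowest library of their group at 8.74% to 14.7% of 9766 genes, and replicates 1 to 3 at 48.9% to 68.1%. Whether they are independent of replicates 1 to 3 was not tested, and SDs and p-values over 5 libraries would be too small if they are not. Results are therefore given with replicates 1 to 3 alone as well. Counts summed over 4 Y-linked genes were 492 to 6347 in WT and 9035, 9, 1, 4330 and 1 in KSR23 replicates 1 to 5, so the sexes were not balanced. Their share, used below as a covariate, was 16.1 to 207 counts per M in WT and 0.0244 to 148 in KSR23. It is thus partly confounded with group, which can widen the error of a fit that holds it. Why a call was lost with it was not tested. Xist, which is transcribed in females, had 691 counts in KSR23 replicate 4, 919 in WT replicate 3 and 167 in WT replicate 5, beside their Y-linked counts.

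Of the 103 members, 61 passed the filter of 5 or more counts in at least 1 library and were tested. Another 23 had no count in any library, among them Cyp7a1, which starts bile acid synthesis, and Cyp17a1 and Cyp19a1, which make sex steroids. The remaining 19 had at most 4 counts in a library. With the likelihood ratio test (LRT) of edgeR at a Benjamini-Hochberg adjusted p under 0.05, 28 of the 61 tested members (45.9%) were called, with 18 lower and 10 higher in KSR23. Of all 17632 genes tested, 18.5% were called, 9.73% higher and 8.76% lower. In whole tissue, fewer cells of a type and less RNA per cell cannot be told apart. By edgeR's quasi-likelihood F test 25 of the 61 were called (41.0%), against 15.4% of all genes, and of the 28 Cyp11b1, Cyp2e1 and Cyp4a31 were not. Because 12 members passed the filter through 1 group alone, which can favour a difference, the count was also taken otherwise. Those 12 held 10 of the calls, Cyp4a12b, Cyp2d34, Cyp2d12, Cyp2j11, Cyp11b1 and Cyp11b2 through KSR23 and Cyp3a59, Cyp3a41a, Cyp4a31 and Cyp2e1 through WT, and the p-values of these 10 are given as a description. Of the other 49 members 18 were called, beside 18.5% of the 16325 genes with 5 or more counts in a library of each group (3012 genes). That share equals the 18.5% of all 17632 genes (3261 genes). Over all genes, entry through 1 group alone thus did not raise the share called. When 5 or more counts were required in every library, 13 of 31 members were called (41.9%), beside 22.0% of all genes. The median log2 fold change of the tested members was 0.15, also with genes at 0 in a group set to their bounds, and that of all genes was 0.03.

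The ranges of WT and KSR23 were separate for 21 of the 61 members (6 higher and 15 lower in KSR23), beside 14.4% of all genes tested. Of the 49 members with 5 or more counts in a library of each group, 15 had separate ranges (1 higher and 14 lower), beside 15.0% of such genes. In replicates 1 to 3 alone the LRT called 11 members, beside 3.36% of all genes, and all but Cyp4a32 were among the 28. Of these 11, 7 passed the filter on those libraries through 1 group alone (Cyp11b2, Cyp2d12, Cyp2d34, Cyp2j11 and Cyp4a12b through KSR23, and Cyp4a32 and Cyp8b1 through WT). The 4 calls left, of 45 members, were Cyp4a12a, Cyp2d26, Cyp2f2 and Cyp3a11, beside 2.95% of such genes. The quasi-likelihood test on those libraries called 3 members, Cyp2d34, Cyp2d12 and Cyp4a12a, beside 0.812% of all genes. Cyp2d34 and Cyp2d12 passed the filter through KSR23 alone. In the plot of called members by library, 8 called members lie under 1 CPM in both group means.

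**Figure D1:**
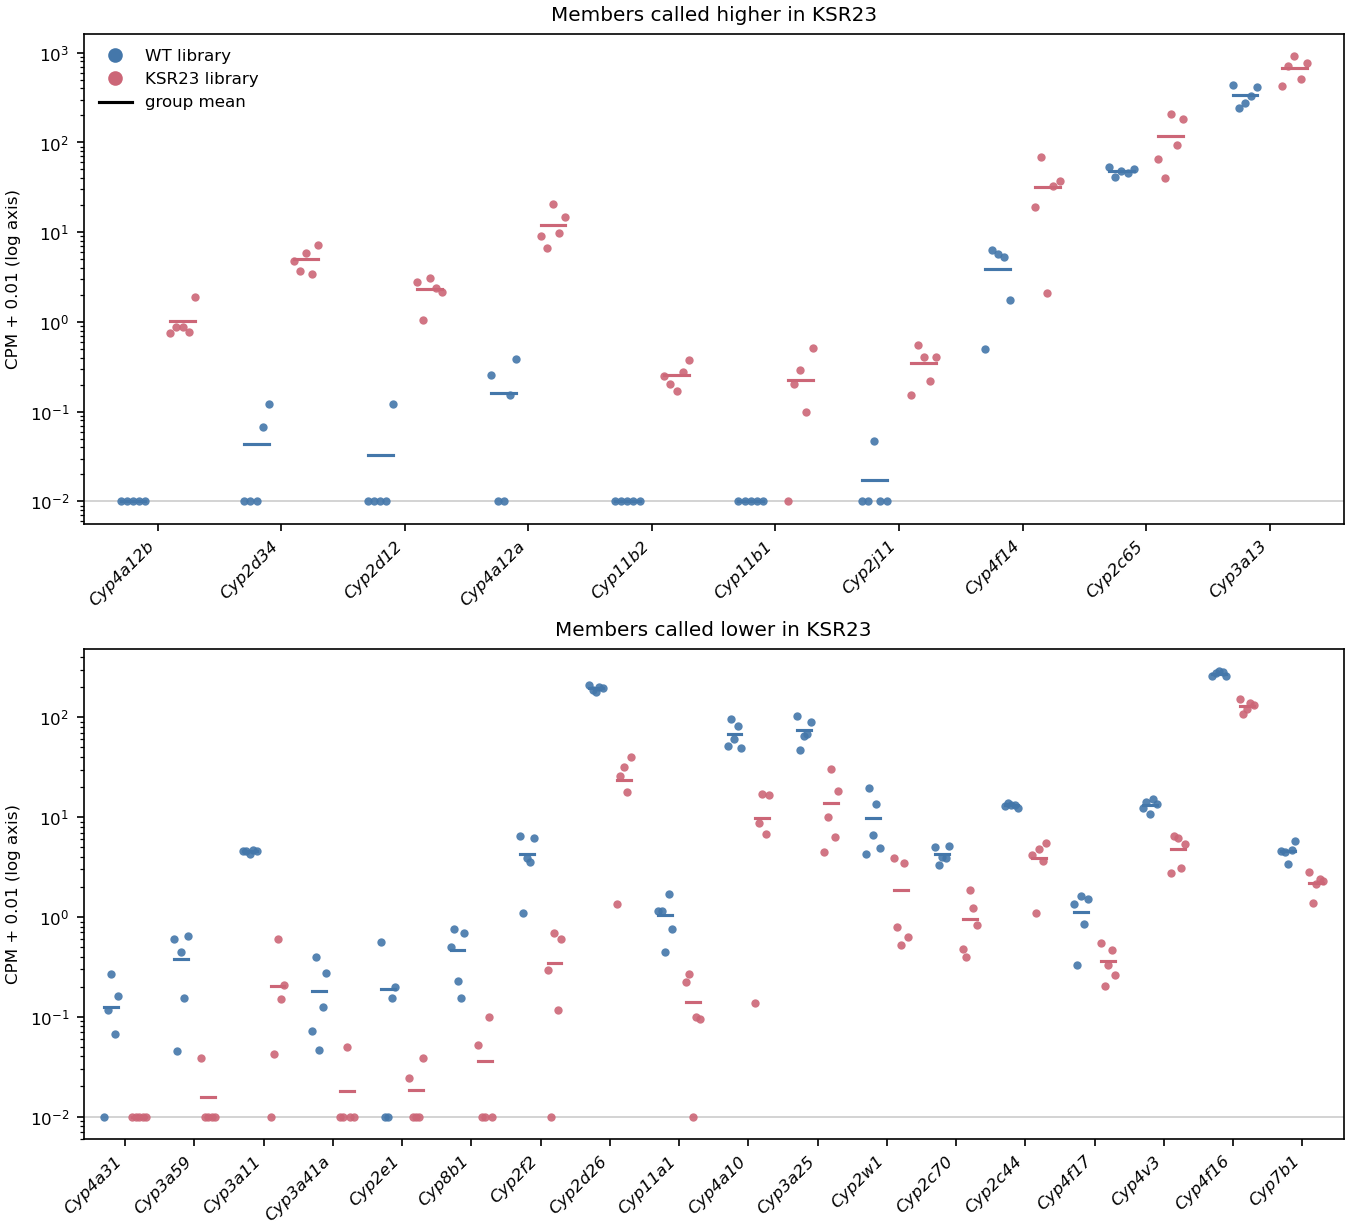
CPM of the 10 members called higher (top) and the 18 called lower (bottom) in KSR23, for each of the 5 WT (blue) and 5 KSR23 (red) libraries, on a log axis with 0.01 CPM added; bars are group means. Points on the grey line had no count, as in all WT libraries for Cyp4a12b, Cyp11b2 and Cyp11b1.

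The summed level of the family differed by less than the spread between replicates, whereas its makeup differed. The sum was 1588 ± 80.8 in WT and 1671 ± 461 CPM in KSR23 (SD, n = 5 each). Cyp3a13, an intestinal member of the drug-oxidizing Cyp3a subfamily, made up 25.7%, 15.8%, 18.6%, 20.3% and 25.4% of the sum in WT replicates 1 to 5. It made up 38.6%, 43.2%, 41.8%, 37.6% and 38.0% in KSR23, and the groups did not overlap. The share of Cyp2d26, a Cyp2d enzyme of the kind that oxidizes drugs, ran from 12.1% to 12.5% in WT and from 0.121% to 1.94% in KSR23. The share of Cyp4f16, a fatty acid hydroxylase, ran from 15.3% to 19.5% in WT and from 5.48% to 13.8% in KSR23.

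**Figure D2:**
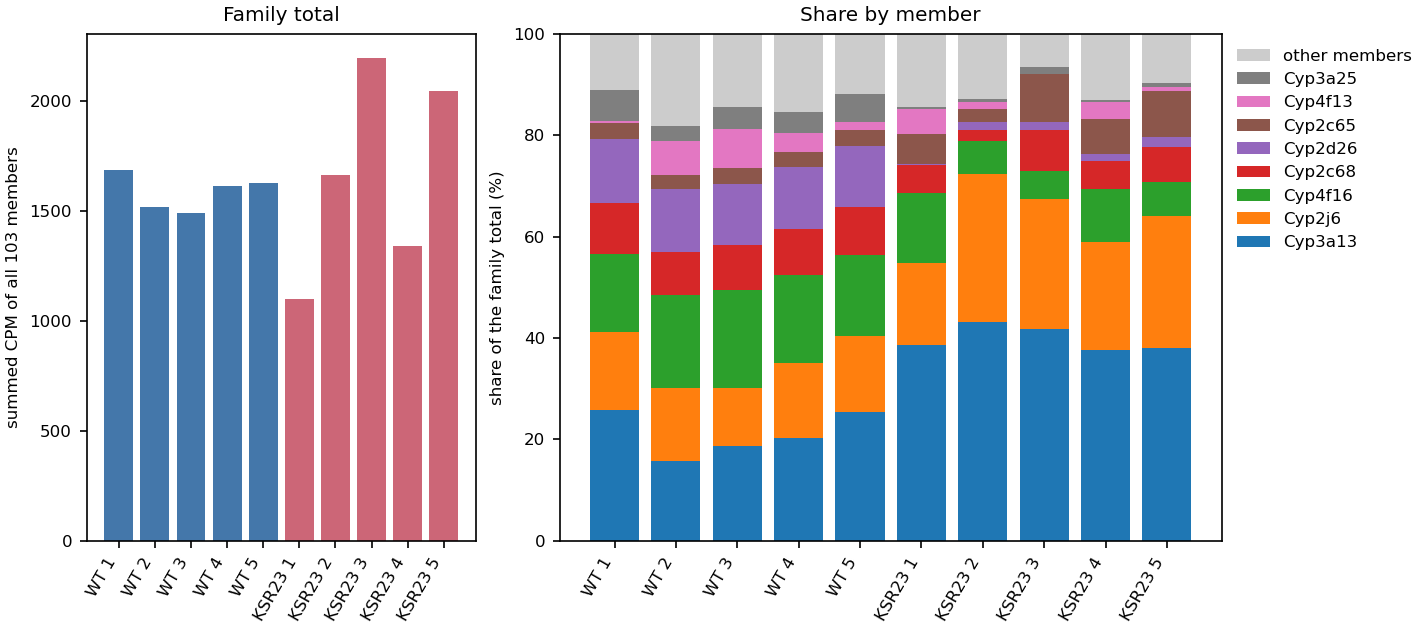
Left, summed CPM of all 103 members in each library; right, share of that sum (%) taken by the 8 members with the highest mean CPM and by the other members. The share of Cyp3a13 (dark blue) is 15.8% to 25.7% in WT and 37.6% to 43.2% in KSR23, while that of Cyp2d26 (purple) is at most 1.94% in KSR23.

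Levels of different members were compared per kb of exon. In WT the highest mean levels were those of Cyp3a13 (115 ± 28.5 CPM per kb), Cyp2d26 (109 ± 6.71), Cyp4f16 (89.1 ± 4.74), Cyp2c68 (84.4 ± 10.2), Cyp2j6 (62.9 ± 9.73), Cyp3a25 (36.1 ± 10.8), Cyp4a10 (32.1 ± 9.52) and Cyp2c65 (24.7 ± 2.32; SD, n = 5). Cyp3a13 and Cyp2d26, Cyp4f16 and Cyp2c68, Cyp3a25 and Cyp4a10, and Cyp4a10 and Cyp2c65 were neighbours whose means differed by less than the larger SD. In KSR23 the order was Cyp3a13 (226 ± 68.4 CPM per kb), Cyp2j6 (114 ± 46.8), Cyp2c65 (61.4 ± 38.2), Cyp2c68 (57.8 ± 34.3), Cyp4f16 (42.6 ± 5.70), Cyp4f14 (13.2 ± 10.1), Cyp2d26 (13.03 ± 8.17) and Cyp4b1 (7.36 ± 3.47). Cyp2c65, Cyp2c68 and Cyp4f16, and likewise Cyp4f14, Cyp2d26 and Cyp4b1, lay within the larger SD of their neighbours. Cyp2d26 took rank 2 in WT and rank 7 in KSR23.

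In 5 subfamilies, members of the same subfamily were called in opposite directions. These were Cyp3a, Cyp4a, Cyp2d, Cyp2c and Cyp4f, and they are described in turn. Only in Cyp4a did a member of each direction both enter the test through both groups and keep its call with the Y-linked covariate, and Cyp4a10 was not called in replicates 1 to 3 alone. The single higher calls in Cyp3a, Cyp2c and Cyp4f (Cyp3a13, Cyp2c65 and Cyp4f14) were lost with that covariate and in replicates 1 to 3 alone, and both higher calls in Cyp2d passed the filter through KSR23 alone.

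**Figure D3:**
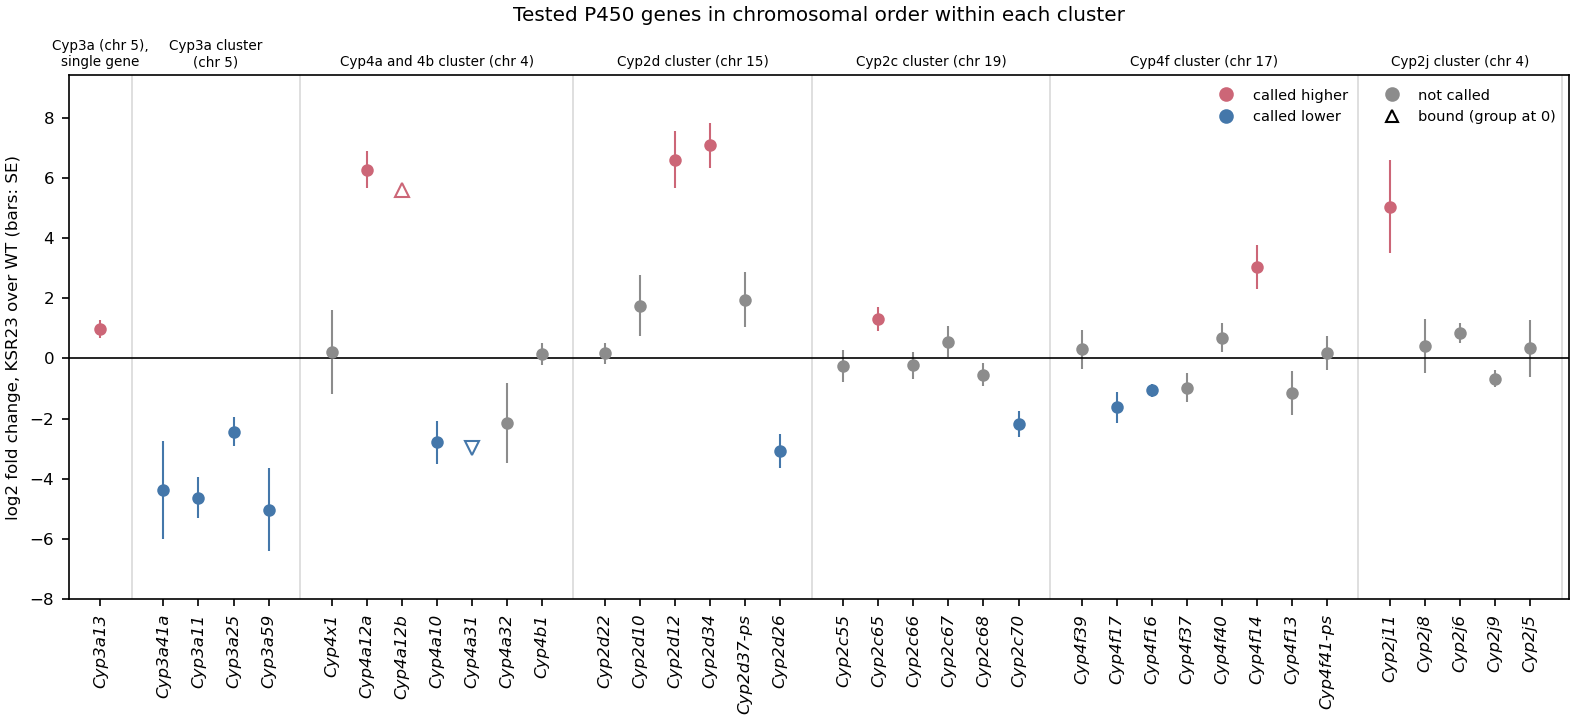
Log2 fold change (KSR23 over WT) ± SE of each tested member of 6 gene clusters and of Cyp3a13, in chromosomal order; red, called higher; blue, called lower; grey, not called. Open triangles are bounds against 3 counts for genes at 0 in a group. Red and blue points occur within the clusters of Cyp4a, Cyp2d, Cyp2c and Cyp4f, and the 4 tested genes of the Cyp3a cluster are all blue.

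Of the 9 Cyp3a genes, whose enzymes oxidize drugs, bile acids and steroids, 5 were tested, and 1 was called higher and 4 lower in KSR23. Cyp3a13 had 434, 240, 278, 328 and 414 CPM in WT replicates 1 to 5 and 425, 720, 919, 505 and 777 CPM in KSR23. KSR23 replicate 1 lay within the WT range and the other 4 above it. The log2 fold change was 0.98 (SE 0.29, LRT adjusted p = 0.00885, quasi-likelihood adjusted p = 0.0254). In replicates 1 to 3 alone it was 1.15 (LRT adjusted p = 0.287), and with the Y-linked share as a covariate 0.78 (LRT adjusted p = 0.305). The KSR23 libraries with Y-linked counts, replicates 1 and 4, were the lowest of the group. In WT, replicate 3 had the fewest Y-linked counts and a level of Cyp3a13 below all but replicate 2.

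Cyp3a11, the mouse relative of the main human drug-oxidizing P450, had 148, 130, 115, 163 and 123 counts in WT and 0, 1, 15, 8 and 7 counts in KSR23. The mean level was 4.54 ± 0.185 in WT and 0.194 ± 0.239 CPM in KSR23 (SD, n = 5), and no library of one group reached the range of the other. This gave a log2 fold change of -4.62 (SE 0.68, LRT adjusted p = 7.23e-08, quasi-likelihood adjusted p = 0.00195). Without KSR23 replicate 3, which held 15 of the counts, it was -5.64. The call held in replicates 1 to 3 alone (-4.43, LRT adjusted p = 0.0273).

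Cyp3a25, the most abundant gene of the Cyp3a cluster, had 104, 46.5, 65.6, 68.7 and 90.6 in WT and 4.45, 10.1, 30.4, 6.34 and 18.1 CPM in KSR23. The groups did not overlap, and the log2 fold change was -2.44 (SE 0.48, LRT adjusted p = 3.89e-05). Its neighbour Cyp3a59 had 19, 1, 12, 5 and 17 counts in WT and 2 counts in all in KSR23, both in replicate 1, a ratio of pooled counts (WT over KSR23) of 39.5 (95% exact interval 10.4 to 335, LRT adjusted p = 0.000119). Cyp3a41a had 1 to 11 counts in each WT library and 1 count in all in KSR23, in replicate 3, a ratio in the same sense of 36.6 (95% exact interval 5.99 to 1502, LRT adjusted p = 0.00186, and 0.0868 with the Y-linked share as a covariate). Both genes passed the filter through WT alone. Its count is uncertain, because 95.3% of its 75-base stretches also occur in another gene, mainly Cyp3a41b, which had no count. For Cyp3a25 and Cyp3a59, 12.3% and 13.2% of the stretches were shared with each other. None of these 3 genes was called in replicates 1 to 3 alone (LRT adjusted p = 0.0732 to 0.278).

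Cyp3a13 (chr5:137892932-137921619, minus strand, build mm10) lies 7.42 Mb from the cluster of the other 8 Cyp3a genes, which spans 768 kb. The 250 bases before the RefSeq start of the 5 tested genes are given here from RefSeq (GRCm38.p6, the assembly of mm10), because these are the genes of 1 subfamily that were called in opposite directions. Capitals mark the words AGGTCA and AGTTCA on either strand (TGACCT and TGAACT on the strand printed), to which nuclear receptors bind in pairs, and the words can overlap by their outer bases. All but Cyp3a59 are on the minus strand and are printed 5′ to 3′ in the direction of transcription. The windows are chr5:137921620-137921869 for Cyp3a13, chr5:145720137-145720386 for Cyp3a41a, chr5:145879855-145880104 for Cyp3a11, chr5:146009619-146009868 for Cyp3a25 and chr5:146079008-146079257 for Cyp3a59. The RefSeq start of Cyp3a11 lies 110 bases inside the gene model used for its length, and those of the others lie within 1 base of theirs.
Cyp3a13: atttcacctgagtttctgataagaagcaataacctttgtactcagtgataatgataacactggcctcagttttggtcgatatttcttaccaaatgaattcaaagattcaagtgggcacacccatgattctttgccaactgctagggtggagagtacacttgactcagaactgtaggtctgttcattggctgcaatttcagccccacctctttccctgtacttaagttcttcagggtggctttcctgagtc
Cyp3a41a: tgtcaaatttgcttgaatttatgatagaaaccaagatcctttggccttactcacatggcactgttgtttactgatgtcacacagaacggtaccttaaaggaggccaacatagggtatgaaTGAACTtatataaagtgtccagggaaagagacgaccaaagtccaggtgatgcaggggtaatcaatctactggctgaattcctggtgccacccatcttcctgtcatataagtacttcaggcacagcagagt
Cyp3a11: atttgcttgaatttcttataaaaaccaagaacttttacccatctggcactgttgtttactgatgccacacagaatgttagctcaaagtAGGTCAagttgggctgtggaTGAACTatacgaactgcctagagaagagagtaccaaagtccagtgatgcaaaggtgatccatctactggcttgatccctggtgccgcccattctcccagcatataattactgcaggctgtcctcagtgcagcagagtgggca
Cyp3a25: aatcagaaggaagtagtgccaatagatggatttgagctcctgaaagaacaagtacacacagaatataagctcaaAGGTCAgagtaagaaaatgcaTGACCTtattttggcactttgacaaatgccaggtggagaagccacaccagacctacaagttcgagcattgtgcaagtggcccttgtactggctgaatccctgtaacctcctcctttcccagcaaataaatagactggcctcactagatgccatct
Cyp3a59: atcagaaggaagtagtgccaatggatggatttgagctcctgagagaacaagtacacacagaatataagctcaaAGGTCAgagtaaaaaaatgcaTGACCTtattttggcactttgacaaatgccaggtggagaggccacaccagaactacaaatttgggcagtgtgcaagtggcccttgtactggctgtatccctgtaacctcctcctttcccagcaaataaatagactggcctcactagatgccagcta

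Cyp3a25 and Cyp3a59 each hold 2 matches of AGGTCA at the same spacing, Cyp3a11 holds 1 match of each word, Cyp3a41a holds 1 of AGTTCA, and Cyp3a13 holds neither word. Over global alignments the windows of Cyp3a25 and Cyp3a59 were 94.8% identical, those of Cyp3a11 and Cyp3a41a 71.7%, and that of Cyp3a13 was 47.5% to 53.5% identical to the others. The remaining pairs, all between genes called lower, were 49.1% to 53.6% identical, so such values were not particular to Cyp3a13. Of all 32851 promoter windows of the same length, 14.0% hold AGGTCA, 11.8% hold AGTTCA and 24.2% hold either. Among the 76 members with a promoter in the RefSeq table, 28 hold either word when 1 window a member is read, that with the start nearest its gene model. They were 0 of 4 members called higher, 7 of 13 called lower, 6 of 27 not called and 15 of 32 not tested. Of the 10 members called higher, those with the largest log2 fold changes have no window (Cyp4a12a, Cyp4a12b, Cyp2d12, Cyp2d34, Cyp11b1 and Cyp11b2). Among the 4 read, Cyp3a13, Cyp2c65 and Cyp4f14 lost their calls with the Y-linked covariate and in replicates 1 to 3 alone. The counts for members called higher and lower are therefore not compared. Another window of Cyp11a1, called lower, holds both words and is not in these counts. The word TATAAA, the core of the TATA box, occurs in 28 of the 76 and in 12.4% of all windows. The word TTCNNNGAA, which STAT factors bind, occurs in 5 of the 76 and in 7.02% of all windows, and 1 of the 5, Cyp2j11, was called higher. The word GCGTG, the core of the site of the aryl hydrocarbon receptor, occurs in 14 of the 76 and in 28.2% of all windows, and it stands in another window of Cyp4f14 that is not in this count. A match is a description of the letters and not a site.

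The Cyp4a genes encode hydroxylases of fatty acid chain ends, and Cyp4a12 enzymes make a vasoactive product of arachidonic acid. Of the 8 genes, 5 were tested, and 2 were called higher and 2 lower. Cyp4a12a (chr4:115299046-115332815) had 8, 0, 0, 5 and 10 counts in WT and 636, 205, 512, 553 and 528 counts in KSR23, which was 0.153 ± 0.162 and 12.1 ± 5.49 CPM (SD, n = 5). No libraries overlapped, and the log2 fold change was 6.27 (SE 0.62, LRT adjusted p = 8.59e-17, quasi-likelihood adjusted p = 0.000241). Cyp4a12b (chr4:115411624-115439034) had no count in any WT library and 52, 27, 22, 43 and 67 counts in KSR23, at least 48.1-fold higher against a floor of 3 counts over the WT group (LRT adjusted p = 4.07e-15), and it passed the filter through KSR23 alone. Of the 75-base stretches, 40.8% of those of Cyp4a12a and 41.3% of those of Cyp4a12b are shared between them. Non-unique reads entered no gene, so the counts of both may be too low.

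Cyp4a10 (chr4:115518264-115533649), a target of the fatty acid receptor PPAR alpha, begins 79.2 kb beyond Cyp4a12b on the same strand. It had 51.1, 95.5, 60.5, 81.6 and 49.8 in WT and 0.128, 8.64, 16.97, 6.71 and 16.5 CPM in KSR23. Every KSR23 library was below every WT library, and replicate 1 held only 9 counts. The log2 fold change was -2.79 (SE 0.72, LRT adjusted p = 0.00332), and -2.97 in replicates 1 to 3 alone (LRT adjusted p = 0.165). With the Y-linked share as a covariate it was -4.60 (LRT adjusted p = 0.0075). Cyp4a31, further along the cluster, passed the filter through WT alone and had 0, 3, 7, 2 and 4 counts in WT and none in KSR23, at least 7.81-fold lower (LRT adjusted p = 0.0015, quasi-likelihood adjusted p = 0.0506, and LRT adjusted p = 0.132 in replicates 1 to 3 alone). The cluster of 11 P450 genes spans 541 kb, and in chromosomal order the genes called higher precede those called lower.

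The Cyp2d genes are the mouse relatives of a human drug-oxidizing enzyme. Among 10 genes 6 were tested, with 2 called higher and 1 lower. Cyp2d34 (chr15:82615965-82620946) had 0, 0, 0, 2 and 3 counts in WT and 338, 114, 146, 195 and 254 counts in KSR23. Cyp2d12 (chr15:82555072-82560403) had 3 counts in all in WT, all in replicate 5, and 197, 32, 78, 136 and 76 counts in KSR23. Neither gene had overlapping groups. The log2 fold change of Cyp2d34 was 7.07 (SE 0.75, LRT adjusted p = 2.63e-29) and 8.002 without WT replicate 5, and the ratio of pooled counts (KSR23 over WT) of Cyp2d12 was 118 (95% exact interval 40.2 to 575, LRT adjusted p = 9.15e-18). Both genes passed the filter through KSR23 alone. They share 2.48% and 2.37% of their stretches with other genes.

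Cyp2d26 (chr15:82790101-82794294), 169 kb from Cyp2d34, had 212, 188, 180, 200 and 196 in WT and 1.34, 26.1, 31.6, 18.01 and 39.7 CPM in KSR23. The WT libraries differed little from each other, and every KSR23 library was far below them. The mean CPM was 8.35 times higher in WT, with a log2 fold change of -3.06 (SE 0.57, LRT adjusted p = 1.62e-05, quasi-likelihood adjusted p = 0.0058). Cyp2d26 was called in replicates 1 to 3 alone as well (-3.26, LRT adjusted p = 0.0224), and with the Y-linked share as a covariate the value was -4.37 (LRT adjusted p = 0.000101).

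The Cyp2c genes encode epoxygenases of arachidonic acid and drug-oxidizing enzymes. Of 16 genes 7 were tested, and 1 was called higher and 2 lower. Cyp2c65, an intestinal member, had 53.2, 41.4, 47.7, 46.0 and 50.4 in WT and 66.0, 40.5, 208, 93.8 and 184 CPM in KSR23. KSR23 replicate 2 lay below the WT range and the other 4 above it, so the groups overlapped. The log2 fold change was 1.31 (SE 0.41, LRT adjusted p = 0.0133, quasi-likelihood adjusted p = 0.0399), the call was lost without KSR23 replicate 5 (LRT adjusted p = 0.0663), and with the Y-linked share as a covariate the value was 0.92 (LRT adjusted p = 0.396). Cyp2c65 was not called in replicates 1 to 3 alone (LRT adjusted p = 0.457). Cyp2c68, the most abundant gene of the cluster in WT, had 145 ± 17.5 in WT and 99.7 ± 59.1 CPM in KSR23 (SD, n = 5; log2 fold change -0.55, SE 0.39, LRT adjusted p = 0.358). It shares 28.5% of its stretches with other genes.

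The other called Cyp2c genes were named after their values were seen. Cyp2c70, which makes the muricholic acids of mouse bile, had 3.32 to 5.11 CPM in WT and 0.387 to 1.87 CPM in KSR23 (log2 fold change -2.17, SE 0.43, LRT adjusted p = 2.51e-05). Cyp2c44, an epoxygenase gene 3.82 Mb from the cluster, had 12.4 to 13.7 CPM in WT and 1.10 to 5.50 CPM in KSR23 (log2 fold change -1.76, SE 0.38, LRT adjusted p = 0.000118). For both genes the groups did not overlap, but neither was called in replicates 1 to 3 alone (LRT adjusted p = 0.0876 and 0.0792).

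The Cyp2j genes also encode epoxygenases, and of 7 genes 5 were tested and 1 was called. Cyp2j6, which gave most of the counts of the subfamily, had 263, 219, 171, 238 and 245 in WT and 178, 485, 563, 286 and 535 CPM in KSR23. KSR23 replicate 1 lay within the WT range and the other 4 above it, and Cyp2j6 was not called (log2 fold change 0.85, SE 0.33, LRT adjusted p = 0.0551). It was called without KSR23 replicate 1 (1.09, LRT adjusted p = 0.000954) or without KSR23 replicate 4 (0.997, LRT adjusted p = 0.0352), and with an index of each library's GC content as a covariate (0.71, LRT adjusted p = 0.00578). Without any other 1 library it was not called, nor in replicates 1 to 3 alone (LRT adjusted p = 0.492), and the Y-linked covariate gave the lowest value (0.42, LRT adjusted p = 0.715). As for Cyp3a13, these were the lowest KSR23 libraries and those with Y-linked counts, whereas the lowest WT library, replicate 3, had the fewest Y-linked counts of its group. Cyp2j11 (chr4:96294508-96348662) had 1 count in all in WT and 10, 17, 10, 12 and 14 counts in KSR23, a ratio of pooled counts (KSR23 over WT) of 43.0 (95% exact interval 7.45 to 1727, LRT adjusted p = 5.12e-06). It passed the filter through KSR23 alone, and its LRT adjusted p in replicates 1 to 3 was 0.0253. Cyp2j9, named after its values were seen, was the 1 member whose groups did not overlap without a call (13.5 ± 2.32 in WT and 8.47 ± 1.75 CPM in KSR23, SD, n = 5, LRT adjusted p = 0.0835).

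The Cyp4f genes encode hydroxylases of leukotriene B4, vitamin E and fatty acids. Of 10 genes 9 were tested, and 1 was called higher and 2 lower. Cyp4f14, which acts on leukotriene B4 and vitamin E, had 0.495, 6.33, 5.69, 5.27 and 1.76 in WT and 18.8, 68.2, 2.07, 33.0 and 37.4 CPM in KSR23. KSR23 replicate 3 lay within the WT range and the other 4 above it. The log2 fold change was 3.03 (SE 0.73, LRT adjusted p = 0.00176, quasi-likelihood adjusted p = 0.0253), but 2.46 with the Y-linked share as a covariate (LRT adjusted p = 0.0939) and 2.87 in replicates 1 to 3 alone (LRT adjusted p = 0.2). Cyp4f16, the most abundant family 4 gene, had 258, 280, 290, 282 and 258 in WT and 152, 107, 120, 141 and 134 CPM in KSR23, with no overlap (log2 fold change -1.06, SE 0.23, LRT adjusted p = 7.47e-05, quasi-likelihood adjusted p = 0.0015). In replicates 1 to 3 alone its log2 fold change was -1.09 (LRT adjusted p = 0.228).

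Of the other family 4 genes called, both named after their values were seen, Cyp4f17 had 1.12 ± 0.538 in WT and 0.353 ± 0.144 CPM in KSR23, with overlap between the groups (LRT adjusted p = 0.0129). Cyp4v3, a fatty acid hydroxylase gene on chromosome 8, had 13.2 ± 1.79 and 4.76 ± 1.73 CPM, with no overlap (SD, n = 5; log2 fold change -1.48, SE 0.33, LRT adjusted p = 0.000213). Neither was called in replicates 1 to 3 alone (LRT adjusted p = 0.417 and 0.302). Cyp4b1, a neighbour of the Cyp4a genes, was not called (14.9 ± 2.11 and 16.6 ± 7.83 CPM). Summed over the family 4 genes, the level was 456 ± 82.7 in WT and 253 ± 35.9 CPM in KSR23 (SD, n = 5), with ranges of 358 to 539 and 189 to 274 CPM.

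Among the remaining genes of family 2, 3 were called, all lower in KSR23. Cyp2f2, which activates naphthalene in airway cells, had 207, 31, 107, 123 and 163 counts in WT and 20, 0, 17, 6 and 21 counts in KSR23, and in CPM the groups did not overlap (log2 fold change -3.68, SE 0.69, LRT adjusted p = 3.08e-05). It was also called in replicates 1 to 3 alone (LRT adjusted p = 0.0494). Cyp2w1, expressed in the fetal gut, had 4.30, 19.6, 6.60, 13.4 and 4.92 in WT and 3.87, 0.774, 0.517, 3.44 and 0.621 CPM in KSR23. The groups came close to each other without overlap (log2 fold change -2.39, SE 0.63, LRT adjusted p = 0.00363, and 0.122 in replicates 1 to 3 alone). Cyp2e1, the ethanol-oxidizing enzyme of the liver, passed the filter through WT alone and had 18, 0, 0, 5 and 5 counts in WT and 2 counts in all in KSR23, a ratio of pooled counts (WT over KSR23) of 20.5 (95% exact interval 5.17 to 178). Its call (LRT adjusted p = 0.0374) was absent from the quasi-likelihood test (adjusted p = 0.0742) and was lost on leaving out any 1 of 7 libraries (LRT adjusted p up to 0.143). With the Y-linked share as a covariate its log2 fold change was -1.71 in place of -3.89 (LRT adjusted p = 0.679). In replicates 1 to 3 alone its LRT adjusted p was 0.411.

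Of 6 genes of bile acid and oxysterol hydroxylation, 5 were tested, and 2 were called, both lower in KSR23. Cyp8b1, which directs bile acid synthesis towards cholic acid, had 16, 21, 6, 5 and 18 counts in WT and 3, 0, 0, 5 and 0 counts in KSR23, and on the CPM scale the groups did not overlap (log2 fold change -3.69, SE 0.89, LRT adjusted p = 0.000244). It was -4.51 without KSR23 replicate 4 and -4.35 in replicates 1 to 3 alone (LRT adjusted p = 0.0125). Cyp7b1, which hydroxylates oxysterols, had 4.52, 4.46, 3.38, 4.69 and 5.82 in WT and 2.83, 1.35, 2.11, 2.37 and 2.26 CPM in KSR23 (log2 fold change -1.06, SE 0.31, LRT adjusted p = 0.00679). Here too the groups did not overlap. With the Y-linked share as a covariate its value was -0.73 (LRT adjusted p = 0.224), and in replicates 1 to 3 alone -0.93 (LRT adjusted p = 0.507). Cyp27a1, the mitochondrial sterol hydroxylase, had 5.08 ± 2.43 in WT and 4.30 ± 2.45 CPM in KSR23, and Cyp39a1, which acts on a hydroxylated cholesterol, had 5.73 ± 0.981 and 7.23 ± 2.83 CPM (SD, n = 5). Cyp46a1, the cholesterol hydroxylase of the brain, had 0 to 8 counts in WT libraries and 0 to 46 in KSR23. These 3 genes were not called (LRT adjusted p = 0.512 to 0.816).

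Of the 6 genes of steroid hormone synthesis, 3 were tested and all were called, at mean levels of 1.03 CPM or less. Cyp11b2, which makes aldosterone in the adrenal cortex, had no count in WT and 17, 6, 4, 15 and 13 counts in KSR23, at least 12.5-fold higher against the floor of 3 counts over WT (LRT adjusted p = 2.55e-07, quasi-likelihood adjusted p = 0.00722). In replicates 1 to 3 alone, where it also passed the filter through KSR23 alone, its LRT adjusted p was 0.012. Cyp11b1, which makes corticosterone, had no count in WT and 0, 6, 7, 5 and 18 counts in KSR23, at least 8.2-fold higher (LRT adjusted p = 0.00212, quasi-likelihood adjusted p = 0.0546). It was not called in replicates 1 to 3 alone (LRT adjusted p = 0.165) or with the Y-linked share as a covariate (LRT adjusted p = 0.092). Cyp11b1 and Cyp11b2 passed the filter through KSR23 alone. Both genes lie side by side on chromosome 15 and share sequence, 7.15% of the 75-base stretches of Cyp11b1 and 14.2% of those of Cyp11b2. Cyp11a1, which starts steroid synthesis from cholesterol, had 37, 32, 12, 59 and 20 counts in WT and 15, 8, 0, 5 and 3 counts in KSR23, and in CPM the groups did not overlap (log2 fold change -2.93, SE 0.60, LRT adjusted p = 4.25e-05, and 0.179 in replicates 1 to 3 alone). Among the called members, Cyp3a13, Cyp4a12b, Cyp2d12, Cyp2f2, Cyp4v3, Cyp7b1, Cyp11a1 and Cyp11b1 overlap another annotated gene, and as it is not known whether counting used strand, reads of such neighbours may be included.

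No tested gene of vitamin D or retinoic acid metabolism was called. Cyp2r1, which begins vitamin D activation, had 0 to 36 counts in WT libraries and 0 to 28 in KSR23 (log2 fold change -1.10, SE 1.04, LRT adjusted p = 0.513). Cyp27b1, which completes it, had at most 5 counts in WT and 13 in KSR23, and Cyp24a1, which inactivates vitamin D, had 3 counts in all 10 libraries together. Cyp26b1 and Cyp26a1, which inactivate retinoic acid, had 0.609 ± 0.229 and 0.0474 ± 0.0467 in WT and 0.825 ± 0.477 and 0.0622 ± 0.0986 CPM in KSR23 (SD, n = 5). The other 23 tested members without a call had log2 fold changes from -2.14 (Cyp4a32) to 1.95 (Cyp2d37-ps). At these counts the standard errors of Cyp27b1 (1.69) and Cyp26a1 (1.45) leave changes of several fold undetectable.

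GC content moved with the level of members within groups. Among the 32 tested members whose group means summed to over 4 CPM, the 11 with over 52% GC, a limit chosen after the values were seen, had a median deviation from the group mean of -0.78 in WT replicate 1, -0.51 in WT replicate 5 and -1.23 in KSR23 replicate 3 (log2 CPM). In the other 21 members these medians were 0.12, 0.08 and 0.59. Cyp4f14 (52.5% GC) had its lowest values in these 3 libraries within their groups, and Cyp4f13 (54.9% GC), a further leukotriene and fatty acid hydroxylase gene, ranged from 6.04 to 115 CPM in WT and from 2.58 to 53.5 CPM in KSR23. The libraries low at GC-rich members were found in both groups. With a GC index of the library as a covariate, an alternative chosen after seeing the data, 36 members were called, the 24 named members that had a call kept it, and Cyp2j6 and Cyp2c68 were called in addition (log2 fold changes 0.71 and -0.78, LRT adjusted p = 0.00578 and 0.00869). The log2 fold change of Cyp4f14 was then 3.55 (LRT adjusted p = 1.21e-07). For all genes the share called in that fit is not given, so the 36 is not read as a result about the family.

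**Figure D4:**
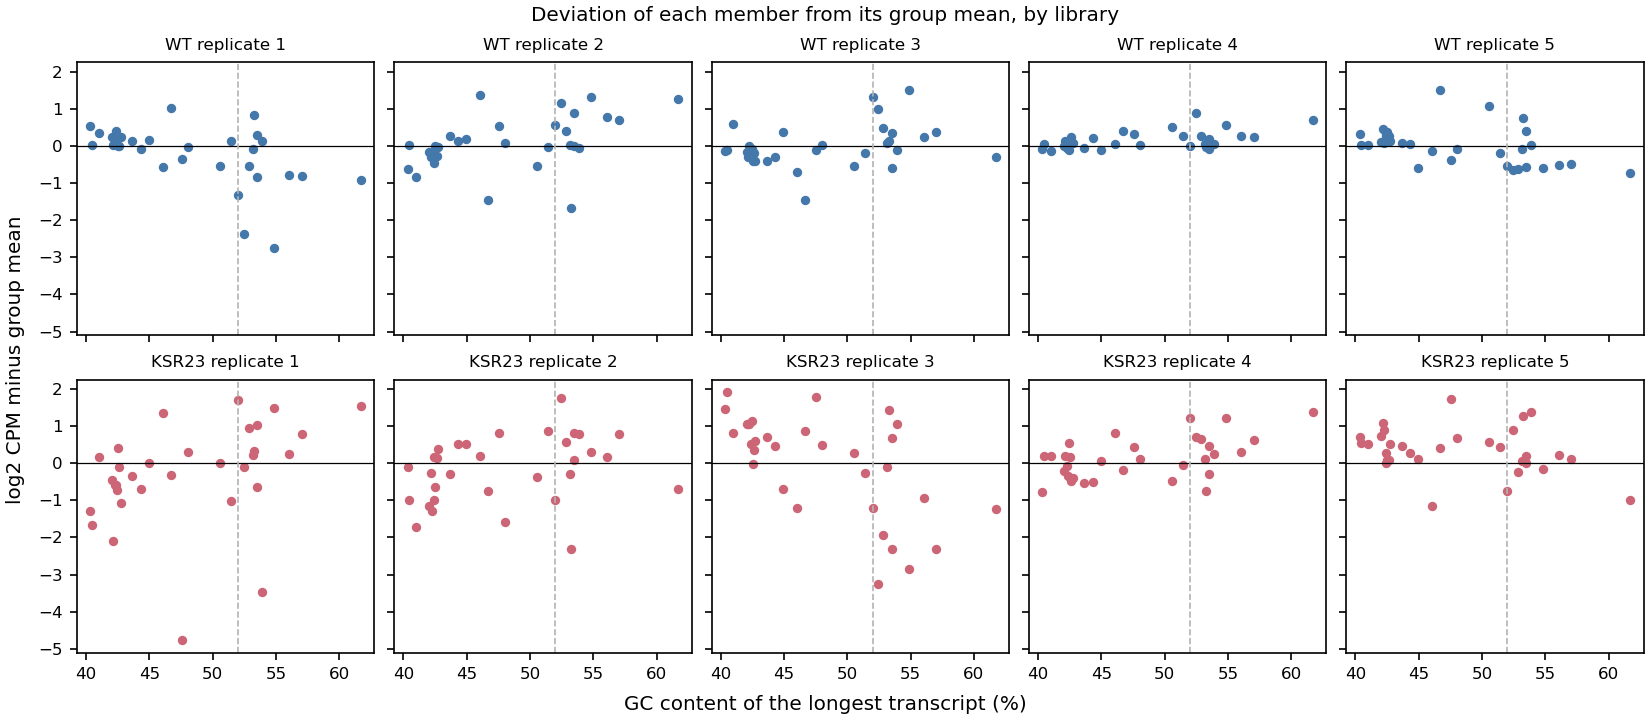
Deviation of log2 CPM from the group mean against GC content of the longest transcript (%), for 32 tested members, 1 panel per library; the dashed line marks 52%. Members right of the line have a median of -0.78 in WT replicate 1 and -1.23 in KSR23 replicate 3, and lie mostly above 0 in WT replicate 2 and KSR23 replicate 4.

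Genes of the pathway that are not members were taken from 3 lists. Of 16 redox partners and enzymes of heme supply, 2 were called higher and none lower, beside 18.5% of all genes called. They were Cyb5b, the cytochrome b5 of the outer mitochondrial membrane (295 ± 42.6 in WT and 741 ± 225 CPM in KSR23, log2 fold change 1.33, SE 0.28, LRT adjusted p = 6.65e-05), and Alas1, which starts heme synthesis (113 ± 14.9 and 189 ± 59.3 CPM, log2 fold change 0.75, SE 0.29, LRT adjusted p = 0.0496, quasi-likelihood adjusted p = 0.057). Por, the P450 reductase, had 121 ± 27.3 and 123 ± 61.8 CPM (SD, n = 5; LRT adjusted p = 0.975). Cyb5b and Alas1 were not called in replicates 1 to 3 alone (LRT adjusted p = 0.112 and 0.536). The median log2 fold change of this list was -0.10.

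Of 20 receptors and factors that regulate P450 genes, 3 were called higher and 1 lower, with a median of 0.27, and this share is near the 18.5% of all genes. The vitamin D receptor gene Vdr had 16.2 ± 4.52 in WT and 49.95 ± 12.6 CPM in KSR23 (log2 fold change 1.63, SE 0.31, LRT adjusted p = 1.38e-05). Hnf4a, a factor of enterocytes and hepatocytes, had 163 ± 42.9 and 343 ± 82.4 CPM (log2 fold change 1.08, SE 0.29, LRT adjusted p = 0.00281), and the fatty acid receptor gene Ppard had 0.739 ± 0.197 and 2.36 ± 0.744 CPM (LRT adjusted p = 0.000153). Nr0b2, the bile acid-induced repressor SHP, had 49.8 ± 10.2 in WT and 5.22 ± 1.21 CPM in KSR23 (SD, n = 5; log2 fold change -3.26, SE 0.29, LRT adjusted p = 1.96e-22), and it was called in replicates 1 to 3 alone (LRT adjusted p = 6.81e-06). Vdr, Hnf4a and Ppard were not called there (LRT adjusted p = 0.11, 0.195 and 0.0963). The receptors of foreign compounds Ahr, Nr1i2 (PXR) and Nr1i3 (CAR) and the receptor Ppara were not called (log2 fold changes -0.12 to 0.30). Of 9 enzymes that act next to P450 products 2 were called lower, again near the share of all genes, the epoxide hydrolase gene Ephx1 (log2 fold change -0.88, SE 0.27, LRT adjusted p = 0.0104) and the lipoxygenase gene Alox15 (-0.93, SE 0.35, LRT adjusted p = 0.0441, quasi-likelihood adjusted p = 0.059). Neither was called in replicates 1 to 3 alone (LRT adjusted p = 0.4997 and 0.639).

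Markers of cell types were read beside these results, and their calls stand beside the 18.5% of all genes tested that were called. Of 7 enterocyte markers 1 was called higher (Cdh17) and 2 lower (Fabp2 and Lct), and the summed level ran from 64147 to 136309 CPM in WT and from 30324 to 96265 CPM in KSR23. Most of that sum was Apoa4 (mean 81611 in WT and 49792 CPM in KSR23), which was not called (LRT adjusted p = 0.161). Cdh17 had 812 and 2283 CPM, and Vil1, not called, 448 and 718 CPM, so the sum does not stand for all enterocyte markers. Of 7 hepatocyte markers 2 were called higher (Fga and Fgb) and 3 lower (Alb, Serpina1a and Ttr), with a sum of 436 to 944 CPM in WT and 13.3 to 118 CPM in KSR23, most of it from Serpina1a and Ttr. Alb, which defines hepatocytes, was at 1.98 ± 1.10 in WT and 0.448 ± 0.451 CPM in KSR23 (SD, n = 5). The 7 pancreatic acinar markers summed to 74.1 to 111 CPM in WT and 0.248 to 0.790 CPM in KSR23, 5 of them being called lower and Amy2a5 being at 0 in all libraries. Ctrb1 gave most of the WT sum (82.2 ± 7.73 CPM), ahead of Prss2 at 4.51 ± 4.57 CPM (SD, n = 5). None of 4 markers of the proximal small intestine was called, and of 4 of the distal part Slc10a2 was called higher. Of 6 smooth muscle and fibroblast, 5 myeloid and 3 endothelial markers, 1 in each list was called lower and 1 myeloid marker higher. Of the 18 marker calls, 12 stood by the quasi-likelihood test too, and those of Lct, Alb, Cpa1, Acta2, Itgam and Slc10a2 did not. With replicates 1 to 3 alone the LRT kept 6, Fga, Serpina1a, Ttr, Prss2, Ctrb1 and Sycn, and its adjusted p-values of the other 12 ran from 0.0762 to 0.717. The part of other cell types in the P450 results was not tested.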

How the data were processed

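Polyadenylated RNA of mouse jejunum was sequenced after low-input amplification by PCR (single-end reads of 75 bases, without molecular identifiers). Per the paper's methods and the submitters' processing notes, the authors mapped reads to mm10 with TopHat2 2.1.0 and counted reads strictly within transcript models with HTSeq 0.6.1p1. The deposited values are raw counts per gene symbol in 10 libraries, not filtered or normalized. The counter's totals of unassigned and non-unique reads (8.62 to 17.1 M not unique) were left out. Non-unique reads entered no gene, which lowers near-identical members. The strand setting is not given in the sources used here, so overlapping genes may share counts.

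Groups came from the sample titles. A gene entered the test if any library held 5 counts or more (17632 genes). Totals were scaled by TMM and groups compared with negative binomial fits and the likelihood ratio test of edgeR 4.0.16 (R 4.3.3), the test the study used. The filter is one reading of the study's wording. P-values were adjusted over all genes. SE are those of the fit. A group at 0 was set to 3 counts over the group, and ratios against 1 to 3 counts carry exact conditional binomial intervals (SciPy 1.17.1). The scripts were tested on simulated counts. The alternatives comprised leaving out each library, replicates 1 to 3 alone, other filters, RLE factors, library totals alone, the quasi-likelihood test, DESeq2 1.42.0, a replicate block and a Y-linked covariate. A GC covariate and the quasi-likelihood test on replicates 1 to 3 were added after seeing the data. No 2 libraries were identical.

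Exon lengths, GC content and positions are from GENCODE M21 (mm10), in which 102 of 103 members were found, Cyp2c44 under the symbol Cyp2c23. Stretches of 75 bases were compared between genes. Promoters came from RefSeq, with 76 of 103 members matched, and were aligned with Biopython 1.88. Clusters are members less than 500 kb apart. Named were up to 12 called members in each direction with the largest log2 fold changes, which took in all 10 called higher. Also named were the 8 with the highest level per kb in each group, and tested members of the bile acid, steroid, vitamin D and retinoic acid groups. Members, lists and rule were chosen with earlier results of these data known.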

Additional observations from a re-analysis of the deposited data

Results flagged for a closer look

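In 5 of the 57 groups of 5 libraries examined for the named members, the highest or lowest library lay apart from the others by more than Dixon's 95% limit of 0.71 of the range, and chance flags about 1 in 20 groups. Cyp2d26 in KSR23 replicate 1 was at 0.48 log2 CPM (94 counts), against 4.18 to 5.31 in the other KSR23 libraries. Cyp4a10 in the same library was at -2.45 log2 CPM (9 counts), against 2.76 to 4.09. Cyp4a12b in KSR23 replicate 5 was at 0.96 log2 CPM (67 counts), above the -0.33 to -0.11 of the others. Cyp3a11 in WT replicate 3 was at 2.096 log2 CPM, against 2.21 to 2.25, and Cyp26b1 in KSR23 replicate 2 was at -3.07 log2 CPM (2 counts), against -0.24 to 0.41. Without KSR23 replicate 1, Cyp2d26 and Cyp4a10 were still called lower.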

How the results depend on the processing

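The 28 called members numbered 25 to 36 under the quasi-likelihood test, DESeq2, RLE factors, library totals alone, no filter, the replicate block and the GC covariate, and 21 with the Y-linked covariate. Of these settings only the quasi-likelihood test has the share of all genes beside it (15.4%). The other counts, and those on leaving out 1 library, are not read as results about the family. Requiring 5 or more counts in every library left 13 called (3 higher, 10 lower) and 10 without overlap, since the other called members had a library under 5 counts. Replicates 1 to 3 alone gave 11 (6 higher, 5 lower), and their quasi-likelihood test 3 (3 higher, 0 lower), from fewer libraries. With the Y-linked covariate 6 were higher, and the cause was not tested. Leaving out 1 library gave 26 to 30 called, 9 to 12 higher, 16 to 20 lower and 21 to 24 without overlap. The replicate block called 26 (8 higher, 18 lower), with Cyp3a13 (LRT adjusted p = 0.0657) and Cyp2c65 (0.0925) lost. Same-numbered libraries correlated at -0.55, 0.25, -0.46, 0.11 and 0.22, and WT replicate 1 with KSR23 replicate 3 at 0.65. These values do not decide whether equal numbers mark paired samples, and the labels do not say.

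No called named member changed direction in any alternative in which it could be fitted. Members without a call that did, as log2 fold changes, were Cyp4b1 (-0.24 with the Y-linked covariate, -0.061 to 0.39 on leaving out 1 library), Cyp26a1 (-0.30 with the replicate block, -0.82 to 0.88 likewise), Cyp27a1 (-0.42 to 0.083 likewise) and Cyp27b1 (-1.48 to 2.07 likewise, 3.75 with the Y-linked covariate). The Y-linked covariate removed the calls of 7 named members (Cyp11b1, Cyp4f14, Cyp2c65, Cyp3a13, Cyp3a41a, Cyp2e1 and Cyp7b1). It kept the calls of Cyp3a11 (-5.73), Cyp3a25 (-3.26), Cyp8b1 (-2.92), Cyp11a1 (-2.22) and Cyp2w1 (-1.79) at other sizes. Members under 1 CPM rest on few counts.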
